A study of Homo sapiens and Mus musculus with 21 samples.

Results

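The host side of SW480 dnLEF1 tumours was described by setting the mouse transcripts of 3 caecum samples carrying these tumours against those of 3 caecum samples injected with phosphate-buffered saline (PBS), 6 of the 21 samples of the series. The members were taken by their sample titles, and the mouse table held a column for each of them. SW480 is an established human colorectal adenocarcinoma cell line. The SW480 dnLEF1 group had received SW480 cells that carried a dominant negative LEF1 through a lentivirus. The PBS group had received the injection without tumour cells. Both groups were made in NSG mice, an immunodeficient strain without mature lymphocytes, by injection into the caecum wall, and the caecum was taken at day 28. A second SW480 group with a mock virus (SW480 Mock) and an SW620 group with the same dnLEF1 construct (SW620 dnLEF1) served for direct comparisons, with 3 samples each. The other xenograft groups were SW620 Mock, SW620 LRP6KO (CRISPR against LRP6) and SW620 Cas9 (Cas9 control). The labels give no age or sex of the host and do not say whether a line is a clone or a pool. The design speaks of triplicates, and the sample labels do not tie each to a separate mouse. The p-values then measure the spread between these samples, which may be partly technical.

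LEF1 is a DNA-binding partner of beta-catenin that switches on target genes of canonical Wnt signalling, and a dominant negative form occupies those sites without activating them. The construct sat in the human tumour cells, so the mouse genes measured here were those of host tissue that never carried it. The caecum wall consists of a crypt epithelium, connective tissue, smooth muscle, vessels, enteric nerves and resident myeloid cells, and an implanted carcinoma recruits fibroblasts, vessels and myeloid cells as its stroma. In tissue RNA of this kind, fewer cells of a type and less RNA per cell cannot be told apart. PBS mice differed from the tumour mice in the human cells, the tumour and the construct together, and these cannot be told apart in the comparison with PBS. Human RNA was likewise present in the tumour libraries only. How reads of the 2 species were separated is not given in the sources used here, so human reads counted to mouse genes and host RNA cannot be told apart.

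The mouse genes are listed by Ensembl identifier, and 0 of the 54146 identifiers matched a gene name in the reference tables at hand. The 40 lists of cell type and pathway genes that had been prepared were therefore not used, and the caecum label could not be checked against its markers. Genes are described below as groups, by their levels and changes, and 4 are named by identifier without a role or a position in the genome.

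Levels are TPM, the share of a library's transcripts after correction for transcript length, on which the sequencing depth is lost, so neither counting intervals nor detection floors were given. Between 34288 and 35251 mouse genes were above 0 in SW480 dnLEF1 libraries, and 29434 to 34060 in PBS libraries. The 100 most abundant genes held 32.3% to 36.4% of TPM in SW480 dnLEF1 and 34.4% to 35.2% in PBS. SW480 Mock replicate 2 stood apart from the other libraries, with 7.04% of its TPM in a single gene, and so did SW620 LRP6KO replicate 1, with 3.22%. The highest value in the other libraries was 2.48%. Across the 19672 genes tested, the correlation of log2(TPM + 1) averaged 0.963 to 0.969 between a SW480 dnLEF1 library and the others of its group. A SW480 dnLEF1 library averaged 0.957 to 0.961 with the PBS libraries, and a PBS library 0.956 to 0.958 with the other PBS libraries. These are descriptions across genes, which are not independent replicates. By this measure the SW480 dnLEF1 libraries were about as close to the PBS libraries as the PBS libraries were to each other.

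Which host genes differ between caecum with SW480 dnLEF1 tumours and caecum without tumour? A small set of mouse genes was higher with the tumours and very few were lower. By limma with Benjamini-Hochberg adjustment, 58 of 19672 genes passed an adjusted p of 0.05 (0.295%). Of these, 56 were higher in SW480 dnLEF1 (0.285%) and 2 were lower (0.0102%). At an unadjusted p of 0.05, 1423 genes passed (7.23%), 1104 higher and 319 lower. The median change over all genes tested was 0.03 on the log2 scale, and 54.7% of genes lay above 0. The 3 and 3 libraries did not overlap in 2031 genes that were higher in SW480 dnLEF1 (10.3% of genes tested) and in 720 that were lower (3.66%).

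**Figure D1:**
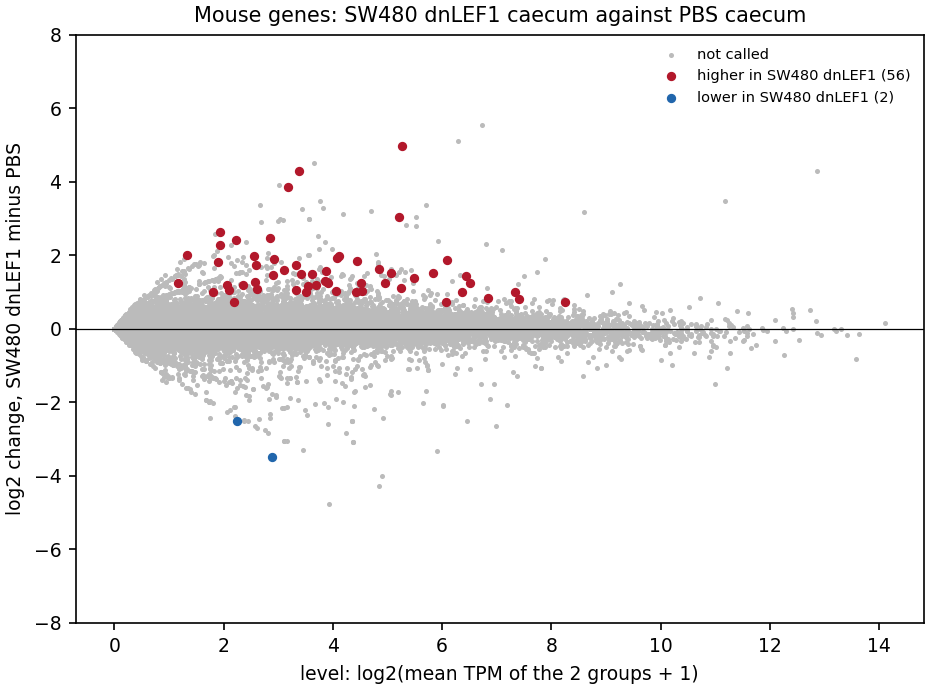
Log2 change of each mouse gene tested, SW480 dnLEF1 minus PBS (y axis, difference of mean log2(TPM + 1)), against its level (x axis, log2 of the mean TPM of both groups plus 1). Red points are the 56 genes called higher and blue points the 2 called lower by limma at an adjusted p of 0.05. Many grey points with larger changes than the red ones were not called.

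The largest rise among the genes called was in ENSMUSG00000029304.14. It was at 96.4, 76.6 and 48.3 TPM in SW480 dnLEF1 replicates 1, 2 and 3, against 0.92, 1.25 and 1.86 TPM in PBS replicates 1, 2 and 3. The lowest tumour library was far above the highest PBS library. The group means were 73.8 ± 24.2 TPM in SW480 dnLEF1 and 1.34 ± 0.48 TPM in PBS (SD, n = 3 each). The log2 change was 4.96 with a standard error of 0.44 (limma adjusted p 2.49e-05). Leaving out any of the 6 libraries kept the log2 change of ENSMUSG00000029304.14 between 4.74 and 5.23 and its adjusted p under the threshold. It also passed with only the 6 libraries of the comparison in the fit (limma adjusted p 0.0195).

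The second was ENSMUSG00000084817.3, which was listed at 0 in all 3 PBS libraries. It was at 21.3, 20.6 and 14.96 TPM in SW480 dnLEF1 replicates 1, 2 and 3 (limma adjusted p 1.74e-04). All 3 tumour libraries were therefore above all PBS libraries, and no fold is given against a group listed at 0. This gene passed without any of the 6 libraries in turn (limma adjusted p 8.49e-04 to 0.0025) and with only the 6 libraries of the comparison in the fit (0.00265). PBS, listed at 0 throughout, added no spread to its standard error. That standard error was 0.17 with only the 6 libraries in the fit and 0.46 in the 7-group fit.

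The 2 genes called lower were close to the floor of the table in the tumour libraries. ENSMUSG00000106934.1 was listed at 0, 0 and 0.42 TPM in SW480 dnLEF1 replicates 1, 2 and 3, against 20.6, 7.45 and 9.78 TPM in PBS (log2 change -3.48, SE 0.67, limma adjusted p 0.033). Its call was lost on leaving out any 1 of the 6 libraries (limma adjusted p 0.0677 to 0.207). The pooled spread in those fits included SW620 LRP6KO replicate 1, at 13.4 TPM. In a fit without that library and SW480 Mock replicate 2, chosen after seeing the data, its standard error was 0.26 (limma adjusted p 1.1e-05). The other xenograft groups, then listed at 0 throughout, added no spread to that standard error. ENSMUSG00000065061.1 was listed at 0, 0 and 1.56 TPM in SW480 dnLEF1, against 8.94, 7.68 and 4.32 TPM in PBS (log2 change -2.50, SE 0.29, limma adjusted p 4.13e-04). It passed without each library in turn. In those fits the other xenograft groups, where it was listed at 0 throughout, added no spread to its standard error. That standard error was 0.45 with only the 6 libraries of the comparison in the fit. With only the 6 libraries of the comparison in the fit, neither passed (limma adjusted p 0.0782 for ENSMUSG00000106934.1 and 0.204 for ENSMUSG00000065061.1). In both genes the groups did not overlap, which the naming rule required.

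The other xenograft groups did not overlap with PBS in these 4 genes, except SW620 LRP6KO in ENSMUSG00000106934.1. ENSMUSG00000029304.14 ranged from 52.4 to 283 TPM in the 15 xenograft libraries without SW480 dnLEF1. ENSMUSG00000084817.3 was above 0 in all 18 xenograft libraries. ENSMUSG00000106934.1 was listed at 0 in 14 of the 15 other xenograft libraries and at 13.4 TPM in SW620 LRP6KO replicate 1, one of the libraries that stood apart, which was above 2 of the 3 PBS libraries. ENSMUSG00000065061.1 was listed at 0 in all 15. These values are set against the same 3 PBS libraries, so they are no separate evidence of the change.

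**Figure D2:**
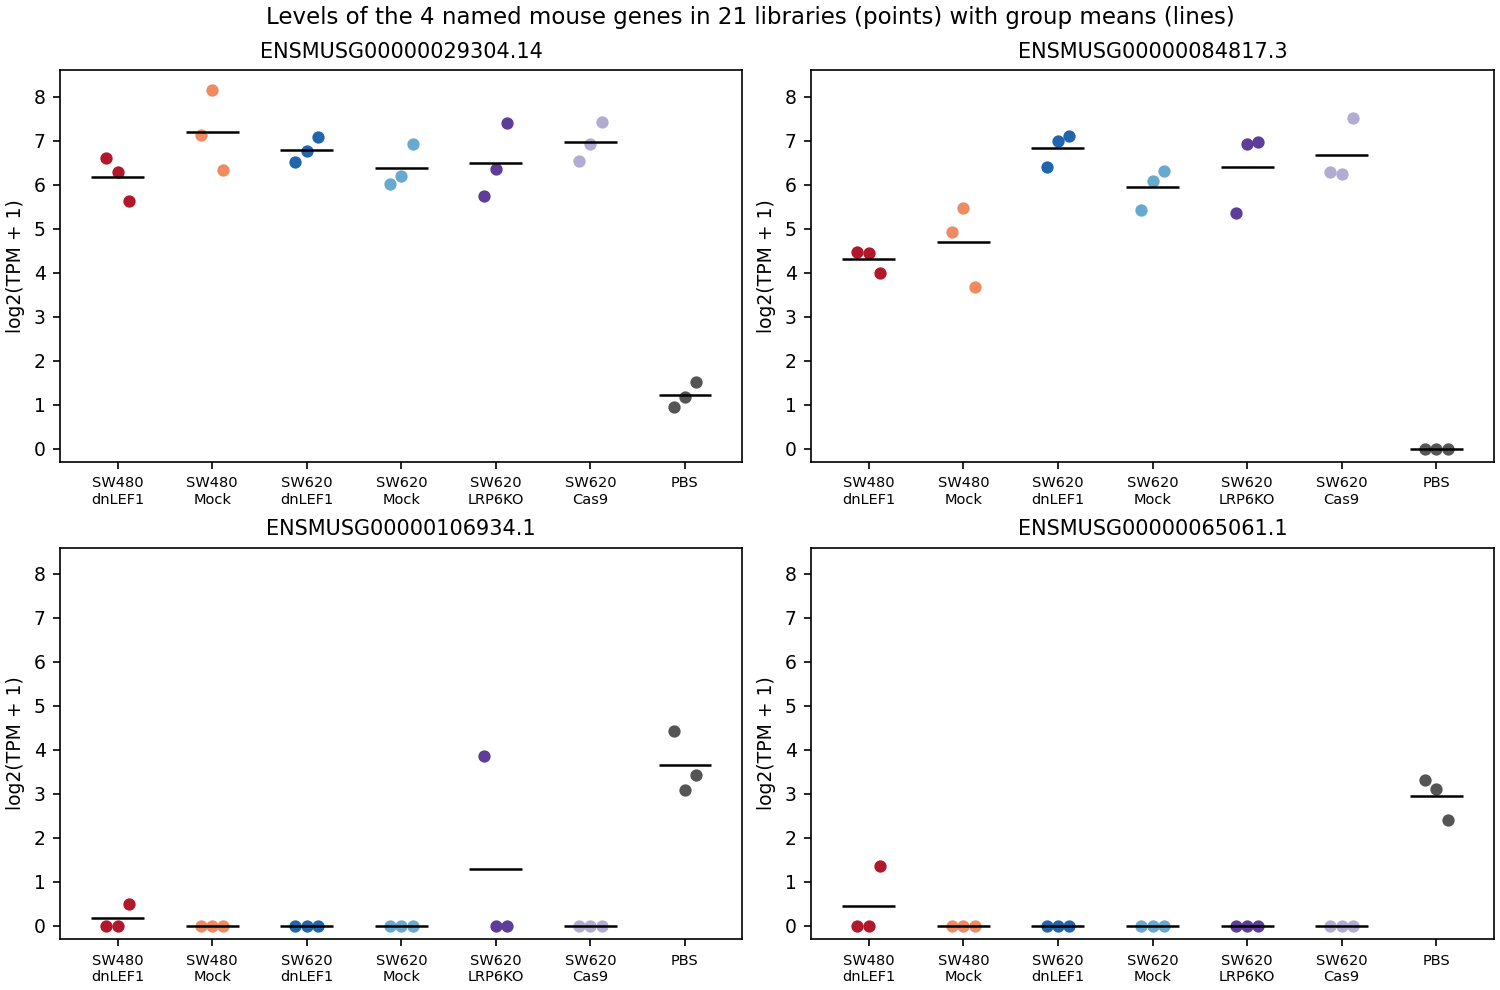
Level in log2(TPM + 1) (y axis) of the 4 genes named by rule in each of the 21 libraries, with 3 points per group, a line at the group mean, and the groups along the x axis. The 2 upper genes sit above PBS in every xenograft library, and the 2 lower genes are listed at 0 in all but 1 or 2 of the 18 xenograft libraries.

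The 56 genes called higher were mostly of low to moderate level. In SW480 dnLEF1 their group means ran from 2.14 to 378 TPM with a median of 19.1 TPM, and in PBS from 0 to 230 TPM with a median of 6.08 TPM. In PBS, 4 of them were listed at 0 in every library, 4 more had a mean under 1 TPM, 16 a mean from 1 to 5 TPM, 20 from 5 to 20 TPM and 12 of at least 20 TPM. In SW480 dnLEF1, 7 had a mean under 5 TPM, 23 from 5 to 20 TPM, 18 from 20 to 100 TPM and 8 of at least 100 TPM. The set was thus not made up of genes that appeared from nothing, since 48 of the 56 averaged at least 1 TPM in PBS.

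Most changes in the set were modest. The log2 changes of the 56 genes ran from 0.72 to 4.96 with a median of 1.34. Among them, 49 changed by at least 1 on the log2 scale, 8 by at least 2 and 4 by at least 3. Their standard errors were 0.13 to 0.53, with a median of 0.23, which is close to the median of 0.23 over all genes tested.

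The most abundant of the 56 had one of the smaller changes. Its level was 397, 374 and 363 TPM in SW480 dnLEF1 replicates 1, 2 and 3, against 207, 218 and 265 TPM in PBS replicates 1, 2 and 3, with no overlap (log2 change 0.72, SE 0.13, limma adjusted p 0.0256). The second in abundance was at 190, 237 and 222 TPM in SW480 dnLEF1, against 129, 115 and 122 TPM in PBS (log2 change 0.82, SE 0.13, limma adjusted p 0.00909). The third was at 187, 210 and 248 TPM in SW480 dnLEF1, against 96.1, 100 and 122 TPM in PBS (log2 change 1.01, SE 0.17, limma adjusted p 0.0141). Together these 3 genes made up 32.1% of the summed TPM of the set in SW480 dnLEF1, and the 10 most abundant made up 63.0%. The 3 were chosen by their level after their values were seen.

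Summed over the 56 genes, the set held 0.249%, 0.263% and 0.244% of all mouse TPM in SW480 dnLEF1 replicates 1, 2 and 3, against 0.0972%, 0.108% and 0.116% in PBS replicates 1, 2 and 3. The tumour libraries were close to one another and above all PBS libraries, which follows from how the set was chosen. The same genes held 0.238% to 0.361% in SW480 Mock, 0.356% to 0.364% in SW620 dnLEF1, 0.282% to 0.337% in SW620 Mock, 0.323% to 0.508% in SW620 LRP6KO and 0.394% to 0.494% in SW620 Cas9. Only 1 of the 15 other xenograft libraries, SW480 Mock replicate 3, held a smaller share than the lowest SW480 dnLEF1 library.

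**Figure D3:**
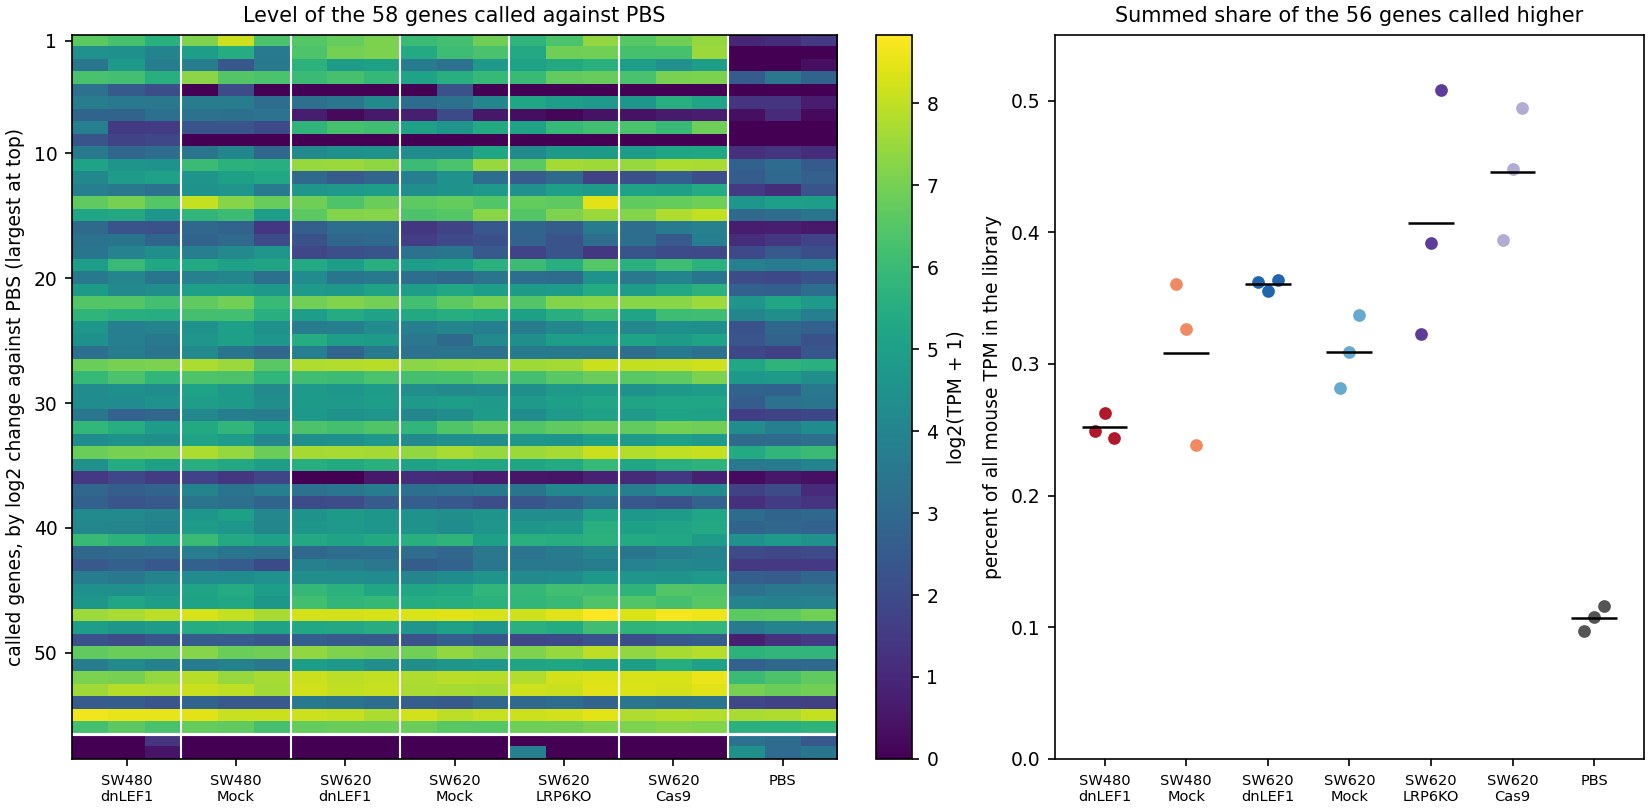
Left, level in log2(TPM + 1) (colour) of the 58 genes called against PBS (rows, by log2 change, with the 2 genes called lower under the white line) in 21 libraries (columns, 3 per group). Right, share of all mouse TPM held by the 56 genes called higher (y axis, percent) in each library (points) with group means (lines), with SW480 dnLEF1 at 0.244% to 0.263% and PBS at 0.0972% to 0.116%.

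Among the 6 xenograft groups, SW480 dnLEF1 had the lowest mean level in 27 of the 56 genes, the next lowest in 10 and the highest in 5. These 56 genes had been picked for being high in SW480 dnLEF1. The median difference over the set, on the log2(TPM + 1) scale, was -0.29 for SW480 dnLEF1 minus SW480 Mock, -0.48 for SW480 dnLEF1 minus SW620 dnLEF1 and -0.21 for SW480 dnLEF1 minus SW620 Mock. It was -0.60 for SW480 dnLEF1 minus SW620 LRP6KO and -0.80 for SW480 dnLEF1 minus SW620 Cas9. Over all genes tested the median was -0.07 for SW480 dnLEF1 minus SW480 Mock and -0.0022 for SW480 dnLEF1 minus SW620 dnLEF1. The ranking of groups, and the medians against SW620 Mock, SW620 LRP6KO and SW620 Cas9, were not worked out over all genes. Whether the ranking is particular to these 56 genes was therefore not tested.

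How calls were spread over levels was looked at in 5 classes of mean TPM over the 21 libraries. The share called in SW480 dnLEF1 against PBS was 0.033% of 3031 genes under 1 TPM, 0.115% of 6081 genes from 1 to 5 TPM, 0.287% of 5220 genes from 5 to 20 TPM, 0.623% of 3853 genes from 20 to 100 TPM and 0.74% of 1487 genes of at least 100 TPM. The median standard error was 0.33 log2 units in the lowest class and 0.18 in each of the top 2 classes. Above 0 lay 39.6% of genes in the lowest class and 62.6% in the class from 20 to 100 TPM.

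Many differences as large as those of the genes called did not pass the test, some of them without overlap between the groups. A rise of at least 2 on the log2 scale was seen in 47 genes, and 39 of these did not pass the limma test. In 8 of the 39 the groups did not overlap, a larger share than the 10.3% of all genes tested for that direction. In 25 of the 39 the highest value was in SW480 dnLEF1 replicate 1. In 14 of the 39 the second highest tumour library did not exceed the highest PBS library. A fall of at least 2 was seen in 54 genes, of which 52 did not pass. In 13 of the 52 the groups did not overlap, a larger share than the 3.66% of all genes tested for that direction. In 7 of the 52 the second highest PBS library did not exceed the highest tumour library. Rises and falls were picked for a change of at least 2, which itself favours groups without overlap. The highest PBS value was in replicate 2 in 27 of the 52. The median standard error of the genes that did not pass was 1.66 for rises and 1.29 for falls.

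Some of these genes were abundant and yet listed at 0 in single libraries. One was at 16737, 6757 and 4426 TPM in SW480 dnLEF1 replicates 1, 2 and 3, and at 0, 9479 and 7037 TPM in PBS (log2 change 4.29, SE 3.66, limma adjusted p 0.952). Another was at 3986, 1447 and 1933 TPM in SW480 dnLEF1, and at 0, 1682 and 4836 TPM in PBS (log2 change 3.47, SE 3.31, limma adjusted p 0.975). Among the 6 libraries compared, PBS replicate 1 was the library listed at 0 in both, and the other PBS libraries overlapped with the tumour libraries. Outside the comparison, both genes were also listed at 0 in SW480 Mock replicate 3. Of 1494 genes that averaged at least 100 TPM over the 6 libraries, 7 were listed at 0 in 1 or more of them, and PBS replicate 1 held 6 of these zeros. An exact 0 at such levels can be an estimate that failed, so zeros are reported as listed values. These genes were chosen by their size after their values were seen.

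Among the uncalled falls without overlap were 2 abundant genes. One was at 39.8, 19.2 and 47.5 TPM in SW480 dnLEF1 replicates 1, 2 and 3, against 201, 256 and 191 TPM in PBS (log2 change -2.65, SE 1.16, limma adjusted p 0.626). In SW480 Mock it was at 18.6, 172 and 17.4 TPM. The other was at 51.8, 10.6 and 13.3 TPM in SW480 dnLEF1, against 61.7, 83.2 and 298 TPM in PBS (log2 change -2.50, SE 1.87, limma adjusted p 0.919). Their standard errors were computed from the spread pooled over all 7 groups. Both were picked after their values were seen.

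Genes that were listed at 0 in 1 group and reached 1 TPM in every library of the other were few. At least 1 TPM in all SW480 dnLEF1 libraries and 0 in all PBS libraries were listed for 14 of the 19672 genes, and 3 went the other way. The same 2 counts were 13 and 7 for SW480 Mock and 9 and 32 for SW620 dnLEF1, against the same PBS libraries.

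The number of calls rested on the pooled spread. With only the SW480 dnLEF1 and PBS libraries in the fit, 5 genes passed in place of 58, 4 higher and 1 lower, and 2 of the 58 were among them. These 2 were ENSMUSG00000029304.14 and ENSMUSG00000084817.3. Leaving out 1 of the 6 libraries at a time gave 16 genes without PBS replicate 1, 28 without PBS replicate 2, 44 without PBS replicate 3, and 30, 23 and 25 without SW480 dnLEF1 replicates 1, 2 and 3. Of the 58, 14 passed in all 6 of these fits. More genes were higher than lower in each of these fits and in each other fit that called any gene. For a single gene, 3 samples against 3 cannot go below a two-sided exact permutation p of 0.10.

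**Figure D4:**
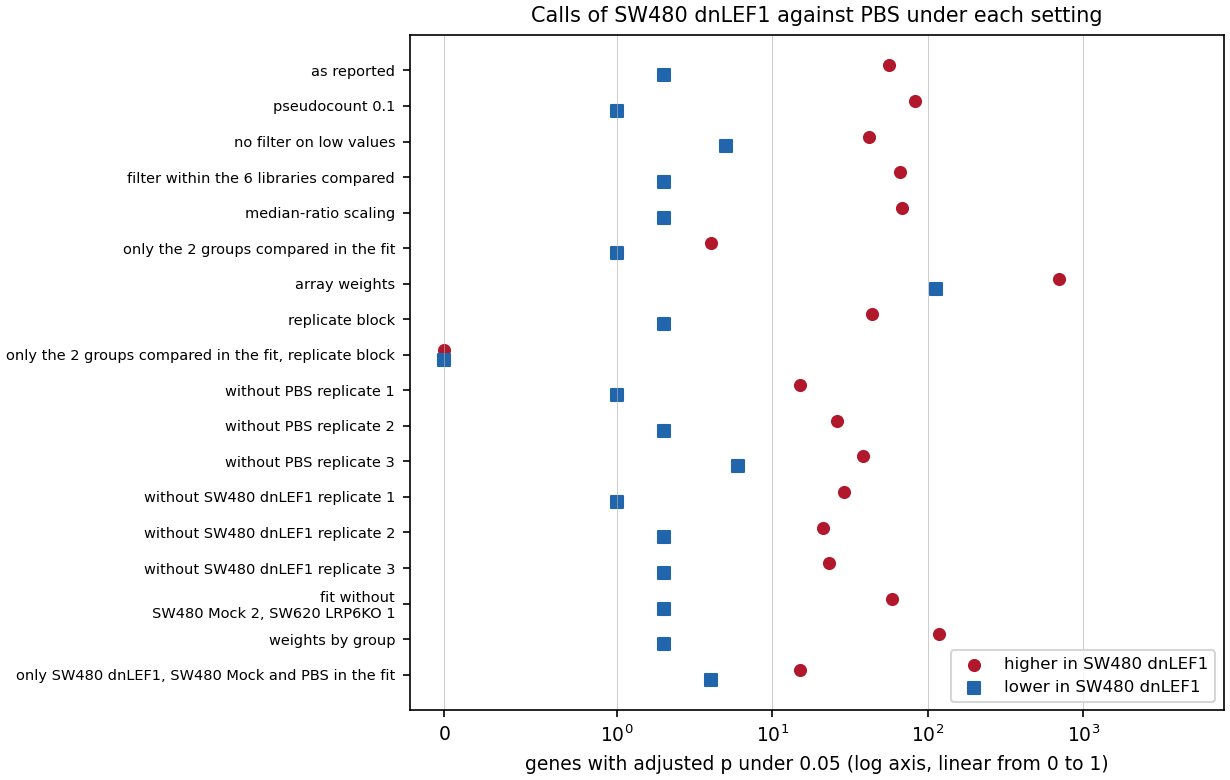
Number of mouse genes called by limma in SW480 dnLEF1 against PBS (x axis, log scale that is linear from 0 to 1) under each setting (rows). Red circles are genes higher and blue squares genes lower in SW480 dnLEF1, at 56 and 2 as reported, 4 and 1 with only the 2 groups in the fit, and 692 and 113 with array weights.

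Does the host tissue differ between SW480 dnLEF1 tumours and SW480 Mock tumours? Very few mouse genes passed the adjusted test. By limma, 6 of 19672 genes passed (0.0305%), 4 higher in SW480 dnLEF1 (0.0203%) and 2 lower (0.0102%). The split was 5 higher and 4 lower with median-ratio scaling, and 7 higher and 12 lower without the filter on low values. At an unadjusted p of 0.05, 1947 genes passed (9.90%), 1048 higher and 899 lower, against 7.23% of genes in the comparison with PBS. The order of these 2 comparisons depended on the pooled spread. With only the compared groups in the fit, 1461 genes passed at that unadjusted limma p here and 1704 in the comparison with PBS. The few adjusted calls do not show that the host tissue of the 2 groups was alike. The groups did not overlap in 802 genes that were higher in SW480 dnLEF1 (4.08%) and in 1753 that were lower (8.91%). Of the 56 genes higher than PBS, 1 was called in this comparison, and it was higher in SW480 dnLEF1 than in SW480 Mock.

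That gene was at 3.87, 2.51 and 2.71 TPM in SW480 dnLEF1 replicates 1, 2 and 3. It was listed at 0 in all 3 SW480 Mock and all 3 PBS libraries, and in every SW620 library. It therefore entered the test only through SW480 dnLEF1, and the other groups added no spread to its pooled standard error. Its small limma adjusted p (7.96e-06) rests on this and is no separate support. The other 3 genes higher than SW480 Mock averaged over 100 TPM in SW480 dnLEF1. One was at 247, 281 and 299 TPM in SW480 dnLEF1, against 147, 152 and 159 TPM in SW480 Mock, with PBS at 186, 185 and 224 TPM (log2 change 0.85, SE 0.12, limma adjusted p 0.00814). Another was at 99.3, 106 and 102 TPM in SW480 dnLEF1, against 62.9, 56.8 and 64.7 TPM in SW480 Mock, and the remaining one at 102, 124 and 106 TPM against 68.7, 72.3 and 59.4 TPM (log2 changes 0.73 and 0.72, SE 0.12 each, limma adjusted p 0.0346 for both). In these 3 genes the PBS mean lay between the SW480 dnLEF1 and the SW480 Mock means.

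The 2 genes lower than SW480 Mock were listed at 0 in all SW480 dnLEF1 and all PBS libraries. They were at 13.3, 12.2 and 5.05 TPM and at 2.71, 3.35 and 8.18 TPM in SW480 Mock replicates 1, 2 and 3 (limma adjusted p 1.34e-06 and 1.24e-04). Groups listed at 0 throughout added no spread to their pooled standard errors, which makes these p-values small. With only the SW480 dnLEF1 and SW480 Mock libraries in the fit, limma called 0 genes, with 1461 at an unadjusted p of 0.05. Without SW480 dnLEF1 replicate 1 the count was 48, and without replicate 2 or replicate 3 it was 3, of which 1 was higher and 2 lower. Without SW480 Mock replicate 3 it was 7, of which 2 were higher and 5 lower. None of the 4 genes named against PBS was called between SW480 dnLEF1 and SW480 Mock. ENSMUSG00000029304.14 differed by -1.04 (SE 0.44, limma adjusted p 0.48) and ENSMUSG00000084817.3 by -0.38 (SE 0.46, limma adjusted p 0.748).

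The direction of the differences from SW480 Mock varied with level over all genes tested. Above 0 lay 20.9% of the genes under 1 TPM, 24.6% of those from 1 to 5 TPM, 43.9% from 5 to 20 TPM, 69.6% from 20 to 100 TPM and 71.5% of those of at least 100 TPM. The number of genes above 0 TPM was 34288 to 35251 in SW480 dnLEF1 libraries and 33442 to 38985 in SW480 Mock libraries, and its part in this pattern was not tested. SW480 Mock also had the widest spread of the 7 groups, with a median SD of 0.29 log2 units, against 0.21 in SW480 dnLEF1 and 0.21 in PBS.

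Does the host tissue differ between dnLEF1 tumours of SW480 and dnLEF1 tumours of SW620? SW620 is a line from a lymph node metastasis of the patient who gave SW480. The mouse genes differed more here than between the SW480 groups. By limma, 592 of 19672 genes passed (3.01%), 193 higher (0.981%) and 399 lower (2.03%) in SW480 dnLEF1 than in SW620 dnLEF1. The groups did not overlap in 1741 genes that were higher (8.85%) and in 2512 that were lower (12.8%). The 193 higher genes had a median mean level of 85.2 TPM in SW480 dnLEF1 and 43.0 TPM in SW620 dnLEF1, with a median log2 change of 0.84. The 399 lower genes had a median mean level of 4.66 TPM in SW480 dnLEF1 and 12.7 TPM in SW620 dnLEF1, with a median log2 change of -1.07.

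**Figure D5:**
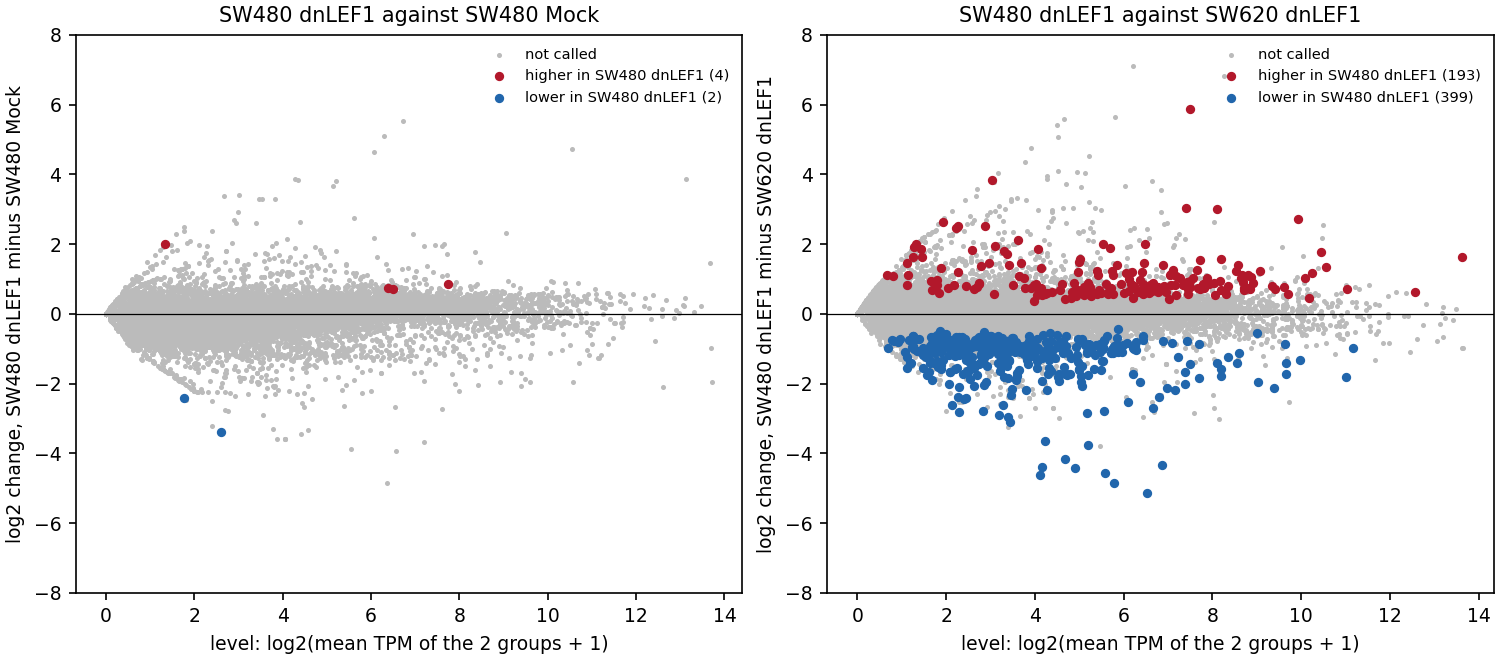
Log2 change of each mouse gene tested (y axis) against its level (x axis, log2 of the mean TPM of both groups plus 1) for SW480 dnLEF1 minus SW480 Mock (left) and SW480 dnLEF1 minus SW620 dnLEF1 (right). Coloured points were called by limma at an adjusted p of 0.05, 4 higher and 2 lower on the left, 193 higher and 399 lower on the right.

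The lower genes were spread over lower levels than the higher ones. Of the genes called, 19 higher and 117 lower fell in the class from 1 to 5 TPM, 32 and 154 from 5 to 20 TPM, 62 and 94 from 20 to 100 TPM, and 75 and 28 at 100 TPM or above. Mouse genes above 0 numbered 34288 to 35251 in SW480 dnLEF1 libraries and 24350 to 27749 in SW620 dnLEF1 libraries, without overlap, and the part of this gap in the calls was not tested.

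Of the 56 genes higher than PBS, 14 were called lower and 7 higher in SW480 dnLEF1 than in SW620 dnLEF1. Over all genes tested, 2.03% were called lower and 0.981% higher. The 56 genes had been picked with the same SW480 dnLEF1 libraries. ENSMUSG00000084817.3 was among the lower ones, at 21.3, 20.6 and 14.96 TPM in SW480 dnLEF1 replicates 1, 2 and 3, against 83.5, 127 and 136 TPM in SW620 dnLEF1. The groups did not overlap (log2 change -2.53, SE 0.46, limma adjusted p 0.00739). ENSMUSG00000029304.14 was at 73.8 ± 24.2 TPM in SW480 dnLEF1 and 111 ± 22.5 TPM in SW620 dnLEF1 (SD, n = 3 each) and was not called (log2 change -0.62, SE 0.44, limma adjusted p 0.519). With only these 2 groups in the fit, 127 genes passed. Leaving out SW480 dnLEF1 replicate 1 gave 890 calls, replicate 2 gave 167 and replicate 3 gave 191. Leaving out SW620 dnLEF1 replicate 1, 2 or 3 gave 386, 223 or 307 calls.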

How the data were processed

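The mouse table that the authors deposited gives TPM per gene for 21 samples. The submitters' processing notes name Trimmomatic 0.35 (read trimming), Bowtie 1.2 (alignment) and RSEM 1.2.31 (quantification) with the builds hg38 and mm10. Annotation release and strand setting are not given in the sources used here. Per the labels' protocols, RNA with an integrity number of at least 9 went into Smart-seq2 libraries. The human table was not used here. TPM keeps no sequencing depth, so precision rests on 3 libraries a group.

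Tested were the 19672 genes that reached 1 TPM in 3 or more libraries. Levels were taken as log2(TPM + 1), which understates the change of low genes, and fitted with a mean for each of the 7 groups in limma 3.58.1 (R 4.3.3, two-sided, trended prior variance). Benjamini-Hochberg adjustment ran over all tested genes in each comparison. The fit was first run on simulated data with independent normal noise and the same spread for a gene in all groups. That run cannot show whether pooling the spread suits the real groups. Genes named are the 2 largest called changes each way against PBS, without overlap between libraries and with a mean of 5 TPM or more where higher. Members, comparisons and lists were chosen with earlier results of these data known. Alternatives were a pseudocount of 0.1, 2 other filters, median-ratio scaling, only the compared groups in the fit, array weights, a replicate block and the omission of single libraries. Summaries and plots used Python 3.11.15, pandas 2.3.3, numpy 2.4.6 and matplotlib 3.10.9.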

Additional observations from a re-analysis of the deposited data

Results flagged for a closer look

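The change from PBS differed between SW480 dnLEF1 and SW480 Mock in 6 mouse genes by limma's test of the difference itself. It differed between SW480 dnLEF1 and SW620 dnLEF1 in 592 genes by the same test. Of the 6 genes, 1 was above 0 only in SW480 dnLEF1, and 2 were listed at 0 in all SW480 dnLEF1 and PBS libraries. Groups listed at 0 add no spread, so the small p-values of these genes are no separate support. With only the SW480 dnLEF1 and SW480 Mock libraries in the fit, 0 genes passed, with 1461 at an unadjusted limma p of 0.05. The gene ENSMUSG00000084817.3, higher than PBS with SW480 dnLEF1 tumours, was lower there than with SW620 dnLEF1 tumours, by a log2 change of -2.53 (limma adjusted p 0.00739). It was lower in all 3 SW480 dnLEF1 libraries than in any of the 3 SW620 dnLEF1 libraries. Single samples were not tested for standing apart within a group, since groups held 3 samples.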

How the results depend on the processing

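Counts below are limma calls, 58 as reported against PBS, 6 against SW480 Mock and 592 against SW620 dnLEF1. With only the 2 groups in the fit they were 5, 0 and 127 (1461 genes at an unadjusted p of 0.05 for the count of 0). With array weights they were 805, 56 and 2849. Without a filter on low values they were 47, 19 and 270. Leaving out 1 library at a time gave 16 to 44, 3 to 48 and 167 to 890. Against SW480 Mock the higher share of calls was 66.7% as reported, 55.6% with median-ratio scaling (5 higher and 4 lower), 50% with the replicate block (2 and 2), 36.8% without the filter (7 and 12), 28.6% without SW480 Mock replicate 3 (2 and 5) and 33.3% without SW480 dnLEF1 replicate 2 or 3 (1 and 2). Where a library was left out, its group kept 2 libraries and shared the pooled spread.

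Alternatives chosen after seeing the data were weights by group (120 against PBS), a fit of SW480 dnLEF1, SW480 Mock and PBS alone (19 against PBS, 2 against SW480 Mock), and the fit without SW480 Mock replicate 2 and SW620 LRP6KO replicate 1 (61, 5 and 508). ENSMUSG00000084817.3 against SW480 Mock, never called, differed by -0.89 to 0.0101 (log2) when 1 library was left out, turning to 0.0101 without SW480 Mock replicate 2, also when SW620 LRP6KO replicate 1 was left out with it. Of 17 alternatives against PBS, ENSMUSG00000029304.14 and ENSMUSG00000084817.3 each lost the call in 1, ENSMUSG00000065061.1 in 3 and ENSMUSG00000106934.1 in 10. The cause was not tested.

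The labels give the groups the same replicate numbers. Same-numbered SW480 dnLEF1 and PBS samples did not deviate together from their group means (r = -0.11, -0.16 and 0.00 across genes). With same-numbered SW480 Mock samples r was 0.07, -0.02 and 0.17, and with SW620 dnLEF1 samples -0.04, -0.04 and -0.17. With 3 samples a group, these values cannot show whether same-numbered samples shared a batch. With the number as a replicate block in the 7-group fit, 46 genes passed against PBS, 4 against SW480 Mock and 464 against SW620 dnLEF1. With the block and only the 2 groups in the fit, chosen after seeing the data, limma called 0 genes in each, with 1216, 1305 and 2686 at an unadjusted p of 0.05. Medians of gene lists and the setting without genes of abundant human counterparts were not run, since no identifier had a name.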
